A study of Mus musculus with 4 samples.

Results

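The genes described here are paralogs of cytosolic ribosomal proteins, that is, additional genes that encode a close relative of a protein of the ribosome: Rps27l, Rpl22l1, Rpl39l, Rpl3l, Rpl7l1, Rpl36al, Rps4l and Rpl10l. Every probe whose accession in the array files is a RefSeq transcript of one of these 8 genes was taken. This gave 8 probes for 6 genes, among 41174 probes on the array. Rps4l, which RefSeq lists as a transcribed pseudogene, and Rpl10l had no such probe and were not analysed here. Each paralog was set beside its parent gene (in the same order Rps27, Rpl22, Rpl39, Rpl3, Rpl7, Rpl36a, Rps4x and Rpl10), and the 8 parents had 13 probes.

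RNA came from mouse embryonic stem (ES) cells in which expression of FBL depends on tetracycline (Tc), grown on gelatin with leukaemia inhibitory factor (LIF). FBL, fibrillarin, is the nucleolar methyltransferase that modifies ribosomal RNA under the guidance of box C/D small nucleolar RNAs. Both groups carried the Tc-dependent system: 2 control samples were kept for 2 days with Tc, which the growth protocol gives as 1000 ng/mL, and 2 FBL-knock down samples for 2 days without it. Each sample was read on 1 single-colour Agilent array. The labels do not say whether the line is 1 clone, nor whether the samples of a group are separate cultures, so a p-value reflects the spread among these 4 samples alone, and that spread may be technical.

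Most ribosomal proteins are encoded by 1 active gene that is expressed in every cell, and the ribosome holds 1 copy of nearly all of them. A few have a paralog whose protein can take the place of the parent's in the ribosome, or that works outside it. Several paralogs are known for a restricted pattern: Rpl10l for the testis, Rpl39l for male germ cells and pluripotent cells, and Rpl3l for heart and skeletal muscle. Rps27l is known as a p53 target gene, Rpl22l1 as a gene repressed by the Rpl22 protein, and Rpl7l1 as a relative of a yeast assembly factor of the large subunit.

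Values are log2 signals with the 75th percentile of each array set to 0, and a change is the knock-down mean minus the control mean on this scale. A probe rose or fell where its p-value in limma, adjusted by Benjamini-Hochberg over all 25077 probes tested, was below 0.05. Each SE and interval is that of limma, which draws the variance of a probe toward a value shared by all probes. The shared value counted for 8.08 degrees of freedom and the probe's own 4 values for 2, so an SE is mostly not the probe's own spread. Fbl, the targeted gene, stood at 8.63 and 8.12 with Tc (the controls) and 5.98 and 5.94 without it (the knock-down samples). It fell 5.32-fold (log2 change −2.41 with an SE of 0.25, n = 2, limma adjusted p = 4.42e-04). All 10 ES cell markers listed, among them Pou5f1, Sox2 and Nanog, were well above background on all 4 arrays. Their mean level was 5.30 and 5.14 with Tc and 4.97 and 5.02 without it. In limma over 1 probe per gene 0 of the 10 passed, where 6.79% of genes were called. Their changes ran from −0.82 (Nanog) to 0.29 (Sox2), with 6 lower and 4 higher. In bulk samples such as these, fewer cells of a type and less RNA per cell cannot be told apart. Between 24478 and 26385 probes per array were well above background. Knock-down sample 2 was alone on a second slide. Across tested probes, the difference between replicates had an SD of 0.51 for the control pair and 0.31 for the knock-down pair.

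Of the 8 paralog probes 1 fell and 0 rose, where 6.20% of all probes tested were called, 2.47% as lower and 3.73% as higher. The probe that fell reads Rpl22l1. In limma, 3 of the 8 had an unadjusted p below 0.05, those of Rpl22l1 and Rpl36al and 1 of 2 for Rpl7l1, where 20.1% of all probes had one. Both knock-down values lay below both controls for 6 of the 8 probes (75%), against 30.6% of all probes tested, and above both for 1, against 20.8%. The median change was −0.36 over the 8 probes and −0.06 over all probes. None of the 13 parent probes was called, and 1 of them had an unadjusted p below 0.05 in limma. Their median change was −0.18, and 6 of 13 (46.2%) had both knock-down values below both controls. Read by 1 probe per gene, 4 of 6 paralogs and 2 of 8 parents had both knock-down values below both controls, beside the 30.6% of all probes. The median changes by gene were −0.24 for the paralogs and −0.14 for the parents, against −0.06 over all genes.

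**Figure D1:**
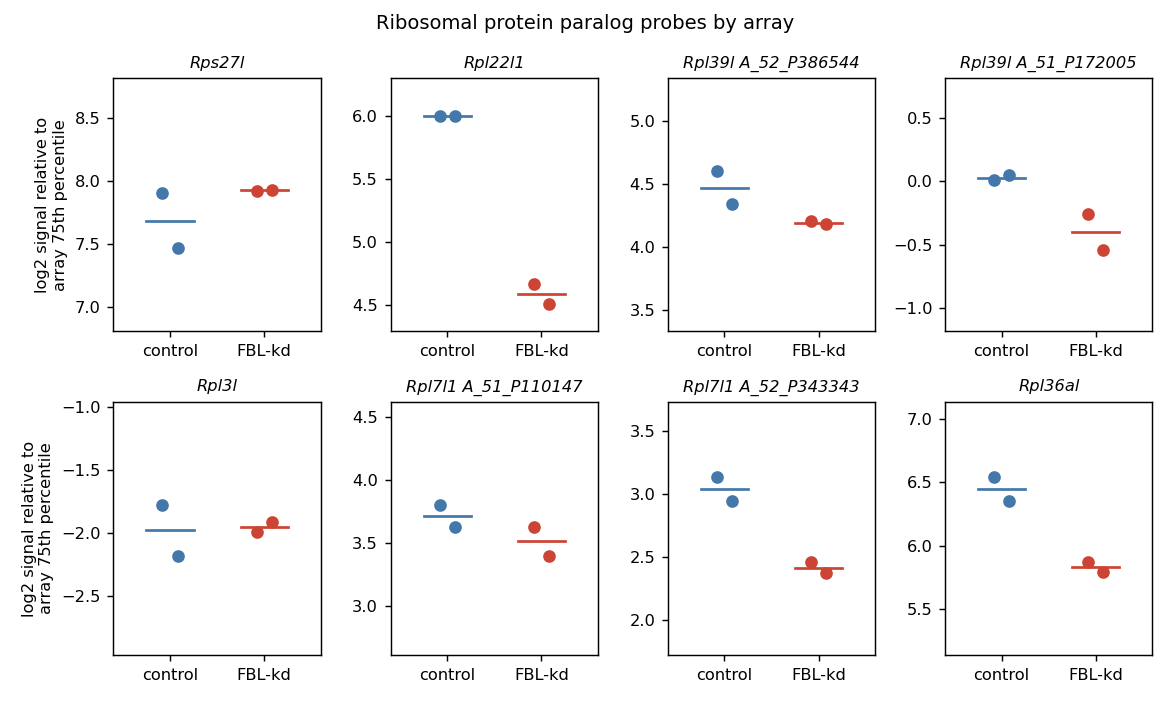
Each panel plots 1 paralog probe, with the log2 signal (75th percentile of each array at 0) on a vertical axis that spans 2 log2 units in every panel; points are the 2 control arrays (blue) and the 2 FBL knock-down arrays (red), and lines are group means. Rpl22l1 shows the widest separation, with both controls at 6.0 and knock-down values at 4.67 and 4.51.

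Rpl22l1 encodes a relative of Rpl22, an RNA-binding protein on the surface of the large subunit. Its level was 6.0 in both controls, equal to 2 decimals, and 4.67 and 4.51 in the knock-down samples. The groups lay far apart, and the samples within each group were close together. Before scaling, the processed signal was 35700 and 51100 with Tc and 16200 and 11400 without it, so the order held without any scaling. Rpl22l1 fell 2.65-fold (log2 change −1.40 with an SE of 0.22, 95% interval −1.90 to −0.91, n = 2, limma adjusted p = 0.00469). Of the 25077 probes tested, 270 had a lower change. Within slide 1, which leaves knock-down sample 2 out, the change was −1.32 and the call was lost (limma adjusted p = 0.0977). That fit gave every probe the same variance. With no filter on dim probes the change stayed at −1.40 with an adjusted p of 0.166 in limma, a setting in which 0 probes were called and 3878 had an unadjusted p below 0.05.

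Rpl22, the parent, is read by 2 probes. At A_51_P387878 its level was 8.34 and 8.0 with Tc and 7.97 and 7.97 without it, with a change of −0.20 (limma adjusted p = 0.698, 95% interval −0.72 to 0.32). At A_52_P391718 it was 3.58 and 3.51 against 3.42 and 3.30, a change of −0.18 (limma adjusted p = 0.714). Both probes had knock-down values slightly below the controls, and neither interval reached the change of Rpl22l1.

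The sequence before the annotated start of Rpl22l1 is shown because this is the paralog that fell. It comes from RefSeq (build GRCm38.p6, chr3:28805258-28805507, plus strand) and covers the 250 bases upstream, 5′ to 3′. Capitals mark matches to TATAAA, the core of a TATA box, on either strand. A match on the minus strand and a match on the plus strand overlap, starting 32 and 28 bases before the start.
Rpl22l1 upstream: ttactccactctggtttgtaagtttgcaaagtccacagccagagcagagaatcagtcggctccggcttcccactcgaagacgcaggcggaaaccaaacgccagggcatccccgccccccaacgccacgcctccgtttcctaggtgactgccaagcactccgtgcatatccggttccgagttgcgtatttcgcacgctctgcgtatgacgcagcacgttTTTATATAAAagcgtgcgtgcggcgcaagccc
The other motifs searched on both strands of the 300-base windows, from 250 bases before to 50 after a start, were CGGAAG, the core of ETS factor sites, and CACGTG, the E-box. Neither was found in the window of Rpl22l1. TATAAA was also present in a window of its parent Rpl22 and in those of Rpl36a and Rpl39, whose probes were not called, and in no window of another paralog. TATAAA was present in 13.6% of all 32851 windows and in 8.82% of 68 windows of cytosolic ribosomal protein genes. CGGAAG was present in 16.9% and 61.8% of these windows, and CACGTG in 7.15% and 11.8%. A match describes these letters and was not tested as a binding site.

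Messenger RNAs of ribosomal proteins are known for a run of pyrimidines at the 5′ end, through which their translation is controlled. The 30 bases around the annotated start, 15 on each side, are given for the paralogs with an unadjusted p below 0.05 at any probe (Rpl22l1, Rpl36al and Rpl7l1) and for the parents of the first pair of them, Rpl22 and Rpl36a. Capitals mark the longest run of C and T, and the first if runs were equal. They are from RefSeq, build GRCm38.p6, at chr3:28805493-28805522 (plus strand), chr4:152324421-152324450 and chr4:152325711-152325740 (plus strand), chr12:69184053-69184082 (minus strand), chrX:134585639-134585668 (plus strand) and chr17:46782642-46782671 (minus strand), in the order shown.
Rpl22l1: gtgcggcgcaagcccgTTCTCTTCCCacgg
Rpl22, upstream start: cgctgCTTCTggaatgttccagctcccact
Rpl22, downstream start: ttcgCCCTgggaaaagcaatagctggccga
Rpl36al: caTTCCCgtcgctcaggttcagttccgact
Rpl36a: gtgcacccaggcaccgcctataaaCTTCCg
Rpl7l1: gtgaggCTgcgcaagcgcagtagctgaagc
Rpl22l1 held the longest run among these, 10 bases from position 2 of the transcript. A run of at least 10 was present in 5.34% of all 32851 windows and in 29.4% of the 68 windows of cytosolic ribosomal protein genes. The runs of Rpl36al and Rpl36a were 5 bases each, those of Rpl22 were 5 and 4, and that of Rpl7l1 was 2. A promoter was found for 13 of the 16 paralog and parent genes. Annotated starts can differ from those used in these cells, so the windows describe the annotation.

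Rpl36al encodes a copy of the large-subunit protein of Rpl36a, which lies at the exit site for transfer RNA. Its level was 6.54 and 6.35 with Tc and 5.87 and 5.79 without it. The groups did not overlap, and the gap between them was wider than the gap within either. The change was −0.61 ± 0.23 (SE, 95% interval −1.12 to −0.11, n = 2 per group), which did not pass (limma adjusted p = 0.158). No probe with a change smaller than 0.86 in size passed in this fit. The 3 probes of Rpl36a had changes of −0.12, −0.22 and −0.33, with limma adjusted p from 0.483 to 0.828. At A_52_P197926 its levels were 8.16 and 7.75 with Tc and 7.75 and 7.70 without it, so control 2 lay with the knock-down samples. The change of Rpl36al was −0.71 without control 2 and −0.52 without control 1. In both cases only the knock-down pair informs the spread.

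Rpl7l1 encodes a nuclear relative of the large-subunit protein Rpl7, and its 2 probes differed. At A_52_P343343 its level was 3.13 and 2.94 with Tc and 2.46 and 2.37 without it, a change of −0.61 ± 0.23 (SE, n = 2; limma adjusted p = 0.158). At A_51_P110147 it was 3.80 and 3.63 against 3.63 and 3.40, a change of −0.20 ± 0.23 (SE, n = 2; limma adjusted p = 0.690). The first probe separated the groups clearly, and at the second knock-down sample 1 came to the level of control 2. The change at A_52_P343343 was −0.71 without control 2 and −0.52 without control 1. The 3 probes of Rpl7 differed too, with changes of −0.61, −0.37 and −0.14 and limma adjusted p from 0.169 to 0.796. Assembly factors with the fold of a ribosomal protein were the nearest group to Rpl7l1 by role, and 0 of 4 (Rsl24d1, Mrto4, Rsl1d1 and Imp3) passed in limma over 1 probe per gene, where 6.79% of genes were called and 20.1% had an unadjusted p below 0.05. Their changes ran from −0.49 (Imp3, of the small-subunit processome) to −0.11 (Mrto4, a relative of the stalk protein Rplp0).

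Rpl39l encodes a relative of Rpl39, a small basic protein in the wall of the exit tunnel for the nascent chain. At A_52_P386544 its level was 4.60 and 4.34 with Tc and 4.21 and 4.18 without it, a change of −0.28 ± 0.23 (SE, n = 2; limma adjusted p = 0.566). At A_51_P172005 it was 0.01 and 0.05 against −0.26 and −0.54, a change of −0.43 ± 0.23 (SE, n = 2; limma adjusted p = 0.345). At both probes the knock-down values were the lower ones, without passing. Rpl39 stood at 8.08 and 7.69 with Tc and 7.78 and 7.83 without it, so its groups overlapped (change −0.08, limma adjusted p = 0.897).

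Rps27l encodes a relative of Rps27, a zinc-finger protein of the small subunit. Its level was 7.90 and 7.47 with Tc and 7.92 and 7.93 without it. The knock-down values lay above both controls, but only just above control 1. The change was 0.24 ± 0.24 (SE, 95% interval −0.30 to 0.78, n = 2 per group, limma adjusted p = 0.651). It was 0.46 without control 1 and 0.02 without control 2. Rps27 had the same order of controls, with 9.06 and 8.54 against 8.90 and 8.99 and a change of 0.15 (limma adjusted p = 0.809). Among 20 genes of the p53 network, 12 rose and 0 fell in limma over 1 probe per gene, where 4.05% of genes rose and 2.74% fell. Among the 19 that were well above background on all 4 arrays, 11 rose. The median change of all 20 was 1.24, against −0.06 over all genes. It was 0.95 with Eda2r, which was not well above background in either control, taken at its bound of at least 1.74-fold. The highest changes of that list were those of the kinase gene Plk2 (2.46, limma adjusted p = 1.80e-04), the epoxide hydrolase gene Ephx1 (2.36, limma adjusted p = 3.42e-04) and the antiproliferative gene Btg2 (2.08, limma adjusted p = 4.23e-04). The list was chosen with earlier results of these samples known, so its direction is not independent evidence.

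Rpl3l encodes the striated-muscle relative of Rpl3, a large-subunit protein near the peptidyl transferase centre. Its level was −1.78 and −2.18 with Tc and −1.99 and −1.91 without it, well above background on all 4 arrays. Both knock-down values lay between the controls (log2 change 0.03 with an SE of 0.24, n = 2, limma adjusted p = 0.966). Rpl3 had the lowest change of the parents when each gene is read by its brightest probe, with 8.78 and 8.51 with Tc and 8.22 and 8.24 without it (change −0.41, limma adjusted p = 0.356). Of 12 striated muscle markers 9 were well above background on all arrays and Myl1 on none. In limma over 1 probe per gene 1 of the 11 tested rose (Myh7, 1.54) and 1 fell (Tnnt2), where 4.05% of genes rose and 2.74% fell. Tnnt2 was well above background on both controls and on 1 of 2 knock-down arrays. The mean level of the 11 was −2.42 and −2.69 with Tc and −2.48 and −2.56 without it.

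**Figure D2:**
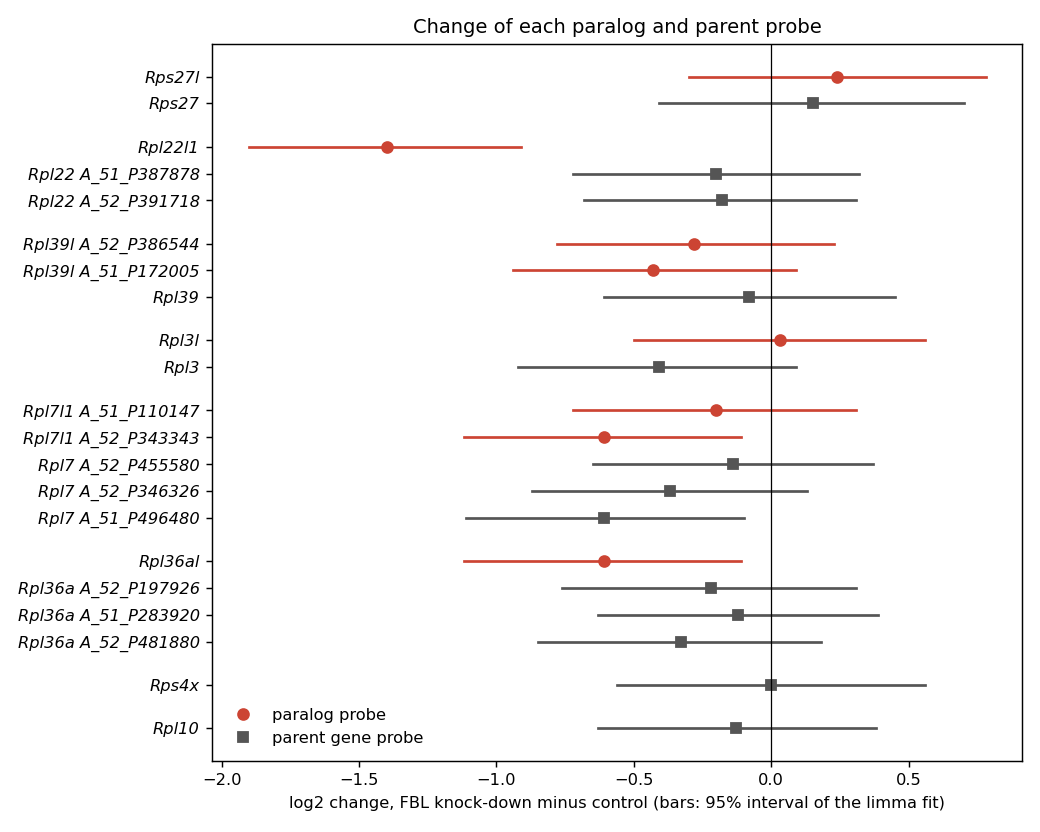
The log2 change, knock-down minus control, is plotted for every paralog probe (circles) and parent probe (squares), with the 95% interval of the limma fit as bars and 2 samples per group. The interval of Rpl22l1 (−1.90 to −0.91) lies apart from those of both Rpl22 probes.

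Of the parents without a measured paralog, Rps4x had a change of 0.00 and Rpl10 one of −0.13. Rps4x, a small-subunit protein of the X chromosome, stood at 8.68 and 8.17 with Tc and 8.34 and 8.51 without it, which lay between the controls (limma adjusted p = 0.999). Rpl10, which joins the large subunit late in its assembly, stood at 7.95 and 7.73 against 7.74 and 7.68 (limma adjusted p = 0.813).

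Taking the paralog minus its parent within each array removes whatever scales a whole array, and asks whether the paralog changed differently from its parent. For each gene its brightest probe was used. Rpl22l1 minus Rpl22 was −2.34 and −2.0 with Tc and −3.30 and −3.45 without it, a shift of −1.20. The shift was several times the gaps within the groups (0.34 and 0.16), and it was −1.22 with the other Rpl22 probe. Rpl36al minus Rpl36a shifted by −0.39, with values of −1.62 and −1.40 with Tc and −1.88 and −1.92 without it, and by −0.49 to −0.28 over the 3 Rpl36a probes. Rpl39l minus Rpl39 shifted by −0.19, and by −0.35 with the other Rpl39l probe.

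In the other direction, Rpl3l minus Rpl3 shifted by 0.44, from −10.56 and −10.69 in the controls to −10.21 and −10.15 in the knock-down samples. Rpl3l itself changed by 0.03 and Rpl3 by −0.41. Their processed signals were far apart, 133 to 176 for Rpl3l and 151000 to 292000 for Rpl3. An effect that depends on intensity does not cancel in such a difference, and its part here was not tested. Rps27l minus Rps27 shifted by 0.09, from −1.16 and −1.07 to −0.98 and −1.06. The knock-down arrays were apart from the controls for these 5 of 6 pairs. Of single probes, 51.4% were apart in 1 direction or the other. The share of differences between probes that were apart was not computed. For Rps27l and Rps27 the margin was under the gaps within the groups. Rpl7l1 minus Rpl7 overlapped, and its shift ran from −0.47 to 0.40 over the 6 pairings of probes. With 2 against 2 arrays the exact two-sided permutation test cannot give less than p = 0.333, which it gave for each of the 5 pairs, and 1 for Rpl7l1, over 6 pairs compared.

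**Figure D3:**
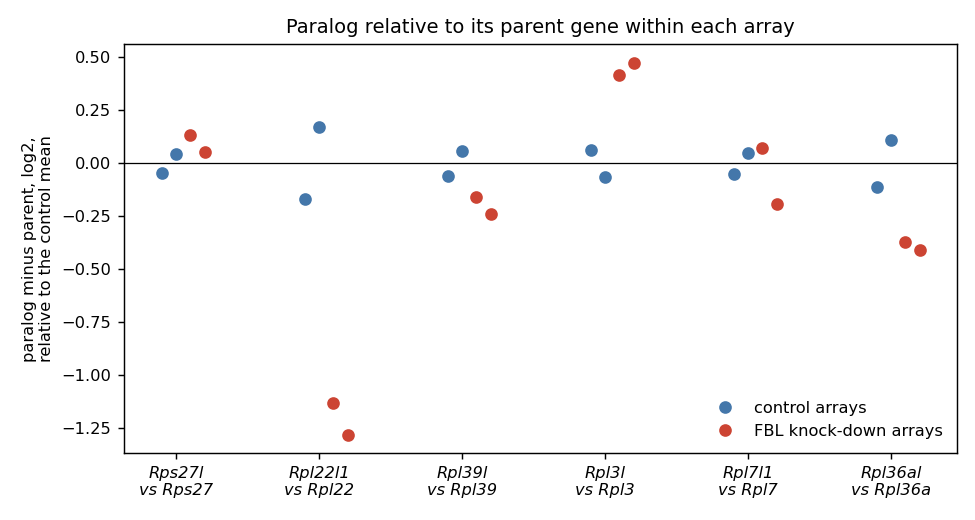
For each pair the vertical axis shows the log2 difference between the paralog probe and its parent probe within an array, minus the mean of that difference over the 2 controls; each point is 1 array. Rpl22l1 shifted by −1.20 relative to Rpl22, Rpl36al by −0.39 relative to Rpl36a, and Rpl3l by 0.44 relative to Rpl3.

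The 79 cytosolic ribosomal protein genes, the parents included, were the wider group. None of them passed in limma over 1 probe per gene, where 6.79% of all genes were called and 20.1% had an unadjusted p below 0.05, and their changes ran from −0.41 to 0.26 with a median of −0.01. Rps18 (0.08) and Rpl7a (0.12) had the highest levels. All 79 had a change higher than that of Rpl22l1 and than that of Rpl36al. Over all 114 of their probes 0 passed in limma, against 6.20% of all probes, and 3 had an unadjusted p below 0.05, against 20.1%. The lowest change was −0.61, at a probe of Rpl7. The mean level of the 79 genes was 8.29 and 7.90 with Tc and 8.04 and 8.11 without it, so the controls lay on either side of the knock-down samples. Rps27l, Rps27, Rps4x and Rpl3l had that same order of controls, with control 1 higher by 0.44, 0.52, 0.51 and 0.40. So did other genes, among them Rpl36a (0.41 at A_52_P197926), Rpl39 (0.38) and Rpl22 (0.34 at A_51_P387878), whereas Rpl22l1 had equal controls. Across all tested probes control 2 minus control 1 had a median of −0.15 and an SD of 0.51, so this order is not particular to these genes. Before scaling, the processed signal of the controls was equal to 3 significant digits for Rps27 (298000) and for Rps4x (229000). It differed for others, such as Rpl3, with 245000 in control 1 and 292000 in control 2. The 75th percentile of the array was 558 in control 1 and 801 in control 2. The part of this difference between the controls in the small changes of these genes was not tested.

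**Figure D4:**
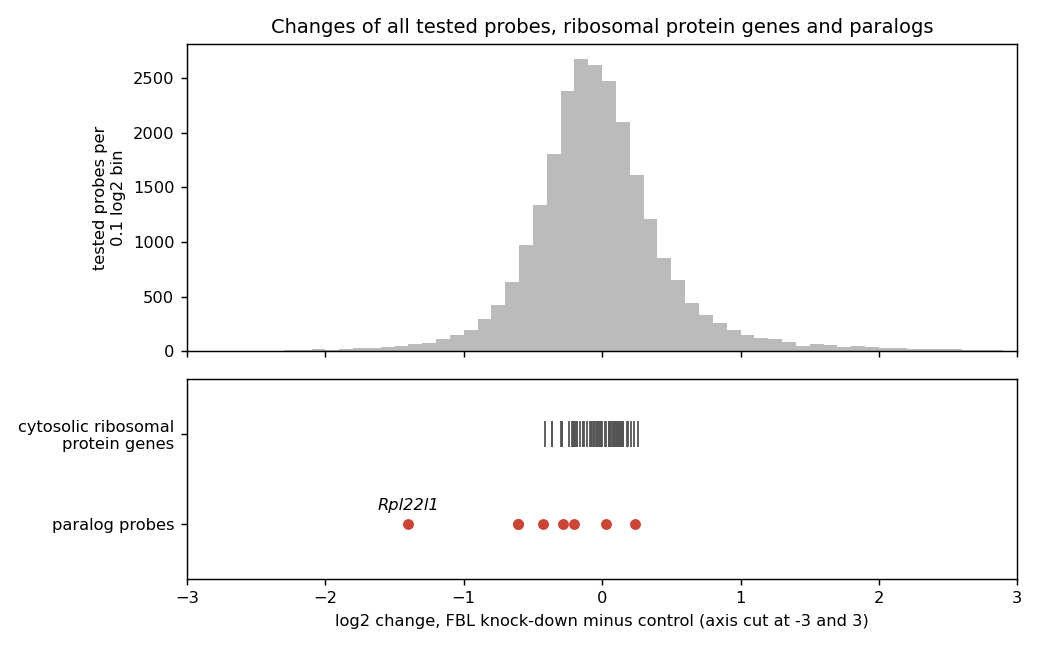
The upper panel counts the tested probes by log2 change, knock-down minus control, in bins of 0.1; the lower panel marks the 79 cytosolic ribosomal protein genes (1 probe each) and the 8 paralog probes on the same axis. The ribosomal protein genes lie between −0.41 and 0.26, and Rpl22l1 lies at −1.40; the dots of Rpl36al and of a Rpl7l1 probe coincide at −0.61, and the axis is cut at −3 and 3.

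By Euclidean distance over the 4 arrays, after centring each probe on its own mean, the named genes whose pattern lay nearest to that of Rpl22l1 among 17177 probes were Cth, Rcn1 and Grb10. Cth, which encodes cystathionine gamma-lyase, stood at 4.22 and 4.18 with Tc and 2.83 and 2.67 without it (distance 0.050). Rcn1, a calcium-binding protein of the endoplasmic reticulum, lay at a distance of 0.0804, and Grb10, an adaptor of the insulin receptor, at 0.0987. Their changes were −1.45, −1.45 and −1.49, with limma adjusted p of 0.00393, 0.00416 and 0.00349. These genes were picked for values close to those of Rpl22l1, so such changes and p-values follow from the selection. Likeness over 4 arrays is a description only.

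Markers of other cell types were read beside these values, and over all genes 4.05% rose and 2.74% fell. Of 12 germ cell markers 10 were well above background on all arrays and Acrv1 on none. Their mean level over the 11 tested was −2.20 and −2.36 with Tc and −2.35 and −2.41 without it, and Stra8 alone passed, downwards (−0.90, limma adjusted p = 0.0471). Of 6 primitive endoderm markers 3 were well above background on all arrays and Pdgfra on none. Sox7 fell (−2.15), and the mean of the 5 tested was −3.97 and −4.37 with Tc and −4.67 and −4.95 without it. Their median change was −0.03, with 3 lower and 2 higher, so the lower mean was not shared by all of them. Of 6 trophectoderm markers, 5 of them well above background on all arrays, Krt7 rose (1.63) and Elf5, well above background on both controls and on 1 of 2 knock-down arrays, fell, with a mean of −3.16 and −3.37 against −3.04 and −3.19. Of 6 fibroblast markers 3 were well above background on all arrays, 2 (Col3a1 and Postn) on none, and 0 of the 3 tested passed in limma, with a mean of −1.05 and −1.66 against −1.46 and −1.26. The part of other cell types in the paralog values was not tested.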

How the data were processed

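Scans were quantified by Agilent Feature Extraction (version 10.7.3.1 per the file headers), whose processed signal is the deposited intensity of a spot. The series value table is on a log2 scale as deposited: subtracting 1 constant per array from the log2 intensity gave 99.8% of the entries within 0.01, and the 75th percentile was 0 within 0.01. It was made with software not given in the sources used here. The array headers name mouse build mm8, so no positions are given except those of RefSeq sequences. In the deposited files, flags mark spots as well above background, outlying or saturated, and no spot was saturated.

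Value-table entries were matched to scanner probes by name (41174 of 41267), and 50 probes with all spots flagged on any array were dropped. A probe was tested when both arrays of either group showed it well above background. Unversioned accessions were looked up in the RefSeq genes of GRCm38.p6, which named 24375 probes. Groups were compared in R 4.3.3 by two-sided limma 3.58.1 tests (lmFit, eBayes). Benjamini-Hochberg adjusted p below 0.05 counted as a call, and intervals are 95%. The script was tested on simulated data. Lists were read by 1 probe per gene, that with the highest mean level. The alternatives were 15 other settings. The scanner files carry no mean signal, so normexp (offset 50) used the median signals. Genes named are Fbl, all paralogs and parents, up to 3 called genes per direction of each list other than the markers, or else its 2 brightest, and the 3 nearest patterns. Rsl24d1, Rsl1d1 and Eda2r were named outside this rule. Names of marker genes outside it were chosen after their values were seen. Members and lists were chosen with earlier results of these data known. The number of arrays limits the precision. Probe sequences were not used here. RefSeq lists pseudogenes named after Rpl7l1, Rps4l and all 8 parents, and whether a probe also reads such copies was not tested.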

Additional observations from a re-analysis of the deposited data

How the results depend on the processing

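Rpl22l1 kept its direction in all 15 alternatives, with changes from −1.49 to −1.31, and passed in 12. It did not pass with no filter on dim probes (limma adjusted p = 0.166), with the slide as a block (0.0977) or without knock-down sample 2 (0.0977), which are the same comparison in the last 2 cases. The highest adjusted p among the 12 was 0.0284. The count of paralog genes called was 0 with no filter and with the slide as a block, and 0 to 3 when 1 array was left out, 3 being without control 2. In limma, probes called higher and lower numbered 936 and 620. They numbered 0 and 0 with no filter (3878 with an unadjusted p below 0.05), 1457 and 1195 with trend and robust, and 462 and 224 with the slide as a block. Those lower were 410 with quantile normalization and 1006 with trend. When 1 array was left out, those higher ranged from 462 to 3012 and those lower from 224 to 2370. Without control 2, more probes than in the main fit were called over the whole array, both higher and lower. Whether the paralog count of that fit exceeded this general rise was not tested. The shift of Rpl3l relative to Rpl3 was 0.52 under normexp, and that of Rps27l relative to Rps27 was 0.24 with quantile normalization. With the replicate number as a block, 1275 probes were higher and 1014 lower, and Rpl22l1 had a limma adjusted p of 8.82e-05. Samples with the same number did not deviate together (r = 0.02 across 25077 probes). Knock-down sample 2 was alone on its slide, so this correlation cannot show whether same-numbered samples were paired. Small changes turned sign, and no call did. Rpl3l was −0.02 under normexp and −0.01 with the slide as a block, and ranged from −0.17 to 0.23 when 1 array was left out. Rps4x was −0.02 under normexp, 0.00 from the scanner signals and −0.08 with the slide as a block, and ranged from −0.25 to 0.26. Rps27 ranged from −0.11 to 0.40 in this way, Rpl36a at A_51_P283920 from −0.27 to 0.02, and Rpl39 from −0.27 to 0.11, with 0.01 under quantile normalization. The cause of these differences was not tested. All 8 paralog probes were well above background on all 4 arrays, and Rpl3l, at the lowest levels among them, was the paralog that turned sign under normexp.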
